A study of Rattus norvegicus with 13 samples.

Results

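Sodium/calcium exchangers of the SLC24 and SLC8 families were examined in the thyroid of young male rats whose mothers had received potassium iodide (KI) or saline during pregnancy. The set comprised 8 genes, Slc24a1 to Slc24a5 and Slc8a1 to Slc8a3, which the array covered with 12 of its 45598 gene probes. Members were found by gene symbol, and every probe was kept. Slc24a2 was chosen because it was among the probes with the strongest decrease in the KI-treated group, so its difference between the groups in the same arrays is given here as a description, without a test. The other genes were taken as its relatives and were tested in a fit over all probes. RNA of the thyroid from 13 male Wistar rats was labelled with Cy3 and hybridised to one-colour Agilent arrays, with 6 rats in the KI-treated group and 7 in the control group. All rats were the offspring of dams treated by gavage for 8 days from gestational day 9, with KI at 1 mg/kg/day or with saline (0.9% NaCl). The thyroids were collected 30 days after weaning, at 51 days post-natal. The litters of the animals were not given in the sources used here, so the p-values measure the spread between these arrays and do not account for shared mothers.

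Both families move calcium against its gradient, most members out of the cell across the plasma membrane. The SLC8 exchangers (NCX) use the inward sodium gradient alone, and the SLC24 exchangers (NCKX) use the sodium gradient together with the outward potassium gradient. They work beside the calcium pumps of the plasma membrane, and the sodium pump keeps up the gradient that they spend. SLC24A1 is the exchanger of rod photoreceptors, SLC24A2 that of cones and many neurons, SLC24A3 is found in brain and smooth muscle, SLC24A4 in brain, olfactory neurons and enamel-forming cells, and SLC24A5 lies in intracellular membranes of pigment cells. SLC8A1 is the main exchanger of the heart and is also found in many other tissues, while SLC8A2 and SLC8A3 are best known from brain and, for SLC8A3, skeletal muscle.

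Levels are log2 values of the background-subtracted spot signal after the 75th percentile of the array in question was subtracted. Differences are given as log2 fold changes, the KI-treated mean less the control mean, so that negative values are lower after KI. Levels of different probes are not on one scale, since probes differ in how well they bind, so the genes are not ranked by level. Summed levels of a marker list add its genes after the log2 was undone, so the brightest probes weigh most. A spot was taken as measured where the scanner software marked it as well above its background.

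The array carried 2 probes for Slc24a2, each of 60 bases. The brighter one (A_44_P1154887) lay at chr5:106298015-106298074 on the minus strand (rn4, per the file headers) and began at position 5980 of the Slc24a2 transcript. The dimmer one (A_64_P078644) lay further towards the 3′ end, at chr5:106295256-106295315, and began at position 8815. They are shown because they differ in composition. The brighter probe ended in a run of alternating C and A of 22 bases, and the longest such run in the dimmer probe was 3 bases. The last 30 bases of each are given 5′ to 3′, with the run of alternating C and A in capitals where it holds 9 or more CA units.
Slc24a2 A_44_P1154887: catacaagCACACACACACACACACACACA
Slc24a2 A_64_P078644: cctggaaaaattaggatgtgcttatgttct
The next 4 probes, of other genes, carry the same kind of run and are shown in the same way.
Cx3cr1 A_64_P008406: aacagattCACACACACACACACACACACA
Glra2 A_44_P1116060: ttagtttaatgCACACACACACACACACAC
Extl3 A_64_P161808: tgcacgCACACACACACACACACACACACA
Rassf2 A_64_P041536: ctaACACACACACACACACACACACACACA

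Of the 12 exchanger probes, 5 were well above background on at least 6 arrays and so entered the fit, out of 25717 probes tested in all. They belonged to Slc24a2 (the repeat probe), Slc24a3, Slc24a5 and Slc8a1 (2 probes). After Benjamini-Hochberg adjustment in limma, 0 of the 25717 probes passed 0.05 (0%), and 3271 (12.7%) had an unadjusted p under 0.05. The methods' t-test also gave 0 after adjustment. Of the 4 tested probes of genes other than Slc24a2, 0 passed after adjustment and 0 had an unadjusted p under 0.05. The median log2 fold change of all tested probes was -0.08, and 60.7% of them had a lower mean in the KI-treated group, so the members' differences are given beside that shift.

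The repeat probe of Slc24a2 was well above background on all 13 arrays. In the KI-treated group its level ranged from 1.33 to 1.66 with a median of 1.42, and in the control group from 1.69 to 2.70 with a median of 2.24. The groups therefore did not overlap on this scale, although KI 6, the highest array of its group, and control 6, the lowest of its group, were only 0.03 apart. Such a gap with the KI-treated group below was found for 84 of the tested probes (0.327%), and one with the KI-treated group above for 0.261%. Since the gene was chosen on this contrast, nothing is read from the gap. The group means were 1.45 ± 0.12 (SD, n = 6) and 2.22 ± 0.31 (SD, n = 7). Their difference was -0.77 on the log2 scale (standard error 0.14), which is a level 1.71-fold lower in the KI-treated group. By size of the log2 fold change the probe stood at place 268 from the lowest of the 25717.

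Control 6 was the array on which the separation of the groups depended. With the 75th percentile taken over spots in place of probes, it stood at -0.66, below the -0.41 of KI 6, and the groups overlapped. The groups overlapped because of the same array after quantile normalization, after either form of normexp background correction and in the deposited log2 values. Control 6 also had the lowest 75th percentile of signal (7.92 on the log2 scale) and the fewest gene spots well above background (34840, against up to 41050). Without control 6 the log2 fold change was -0.86, and without control 3, the highest control, it was -0.69. The scan day was known from the scanner files, and within the 3 days the difference was -0.56 (2 against 2 arrays), -0.63 (3 against 2) and -1.10 (1 against 3). Since the groups did not overlap on this scale, a lower KI-treated mean on each day was fixed beforehand, and nothing is read from it.

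The second Slc24a2 probe did not measure the gene in most of these thyroids. It was well above background on 1 of 13 arrays, control 7, where its level was -2.98, and on the other controls it lay between -6.77 and -5.72. In the KI-treated group it lay between -7.07 and -5.91 and 0 of its 6 spots were well above background. A fold change is not given for it, because both groups were at background. On control 7 the repeat probe stood at 2.24, the median of its group, so the one array with signal on the second probe was not set apart on the first. All that the arrays show of an Slc24a2 difference above background thus comes from the probe that ends in the repeat.

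**Figure D1:**
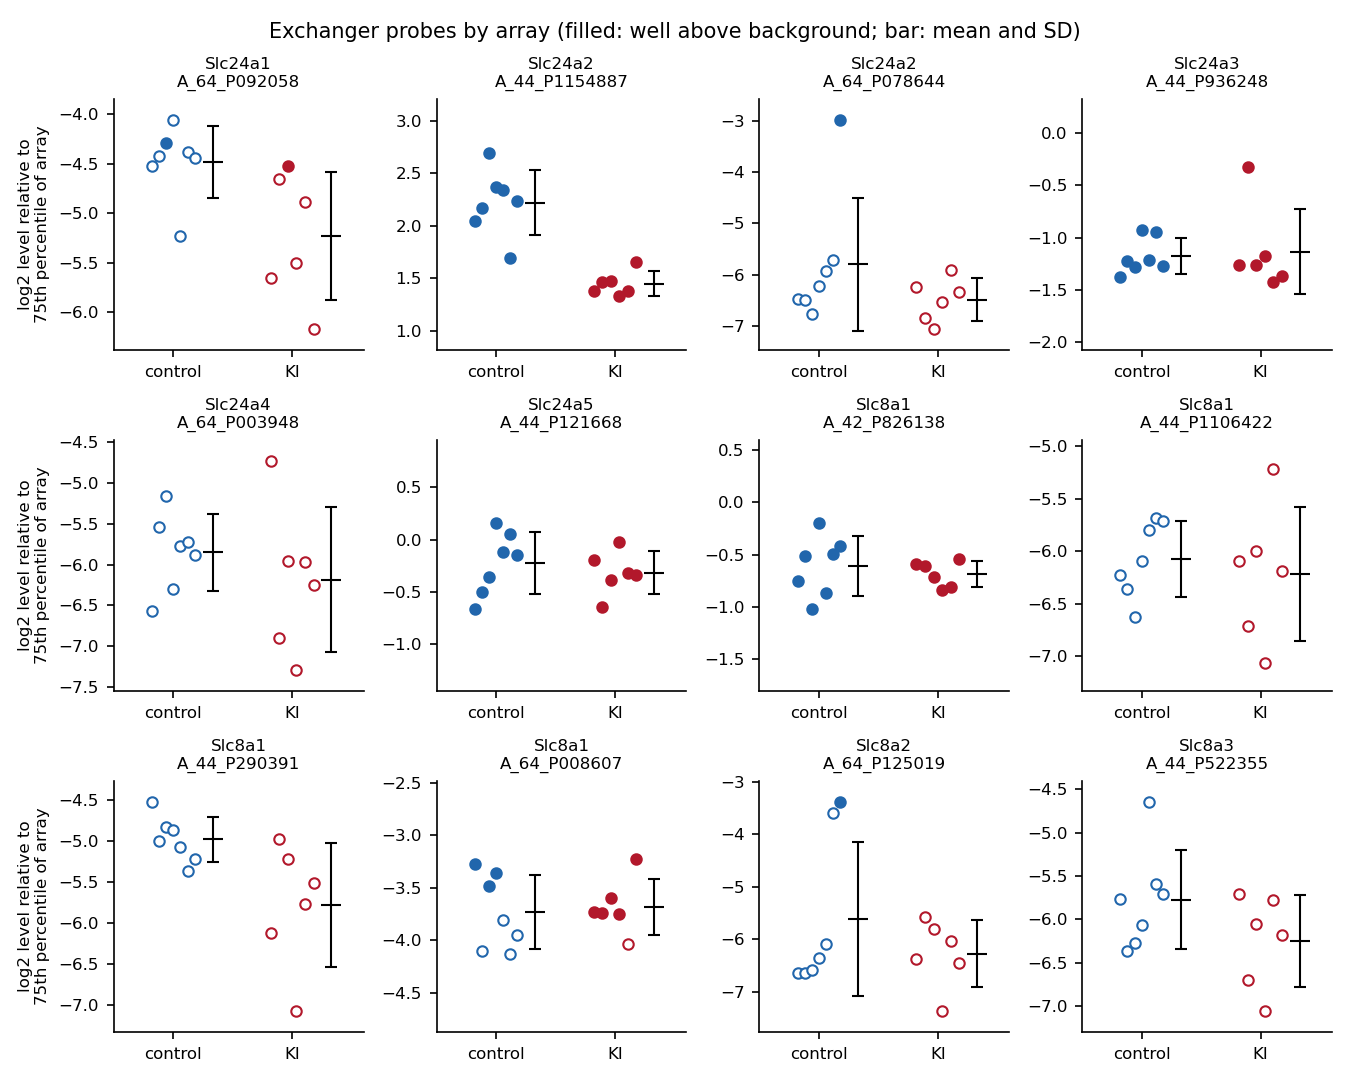
Level of each of the 12 exchanger probes on every array, as log2 signal less the array's 75th percentile, with control arrays (n = 7) in blue and KI-treated arrays (n = 6) in red. Filled points are spots well above background, bars show mean and SD, and each panel has its own axis. The repeat probe of Slc24a2 has all KI-treated points at or below 1.66 and all control points at or above 1.69, while the other measured probes overlap between groups.

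Because the Slc24a2 probe ended in a CA repeat, the other probes with such a run were looked up. This list was made after the values of the Slc24a2 probe had been seen, so it is described without a test of the list as a set. The motif CACACACACACACACACA (9 CA units, read on the strand of the probe as the files give it) was present in 24 of the 45598 gene probes (0.0526%), the Slc24a2 probe included. The 24 probes carried 23 gene names, with 2 probes for Glra2, a glycine receptor subunit of neurons. The named genes differ in their known functions: Cx3cr1 is the fractalkine receptor of myeloid cells, Ets1 a transcription factor, Cym the milk-clotting protease chymosin, Vom2r18 a vomeronasal receptor, Ptprn2 a protein of secretory granules and Nek8 a kinase of the primary cilium. All 24 were among the tested probes.

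All 23 CA repeat probes other than that of Slc24a2 had a lower mean in the KI-treated group, where the share over all tested probes was 60.7%. Their log2 fold changes ran from -0.95 to -0.45, with a median of -0.65, against the median of -0.08 over all probes. The value of Slc24a2, -0.77, lay inside that range, and 5 CA probes had a larger decrease, among them 1 of Glra2 (-0.85, standard error 0.18) and that of Vom2r18 (-0.79, standard error 0.18). Cx3cr1 stood at -0.72 (standard error 0.16), Rassf2 at -0.65 (standard error 0.15), and Extl3 at -0.63 (standard error 0.16). The groups did not overlap for 1 of the 23, against 0.327% of all tested probes with the KI-treated group below. In limma, 23 of the 23 had an unadjusted p under 0.05, against 12.7% of all tested probes, and 0 passed after adjustment. These probes share their arrays and their repeat, so they are not separate observations. With 8 CA units required, 27 of 27 other probes were lower in the KI-treated group, and with 10 units 19 of 19.

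Probes with the complementary repeat differed from the CA probes in direction. The motif TGTGTGTGTGTGTGTGTG was present in 39 gene probes (0.0855%), all tested, and 37 of them had a higher mean in the KI-treated group, with a median log2 fold change of 0.12 and a range from -0.05 to 0.16. Over all tested probes 39.3% were higher. The groups overlapped for each of the 39, and 0 had an unadjusted p under 0.05 in limma, against 12.7% of all tested probes. Their median level ran from 4.68 to 5.17 over the KI-treated arrays and from 4.28 to 5.06 over the control arrays. The 39 probes share their arrays and their repeat, so they are not separate observations. An example of a higher mean is the probe of Acbd4, an acyl-CoA binding protein, at 0.16. Its last 30 bases lie within the run of alternating T and G, shown in capitals.
Acbd4 A_44_P1110393: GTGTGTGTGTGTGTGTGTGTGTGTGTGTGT
The directions of both repeat groups held under other scalings. Under the other 5 scalings (the percentile over spots, quantile normalization, both forms of normexp and the deposited log2 values) all 23 CA probes were lower, and 37 to 39 of the 39 TG probes were higher, in the KI-treated group. The size for the TG probes depended on the scaling, with a median of 0.15 after normexp with the 75th percentile, 0.20 with the percentile over spots, 0.26 with either quantile normalization and 0.27 in the deposited values, while the median for the CA probes ran from -0.61 to -0.55.

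**Figure D2:**
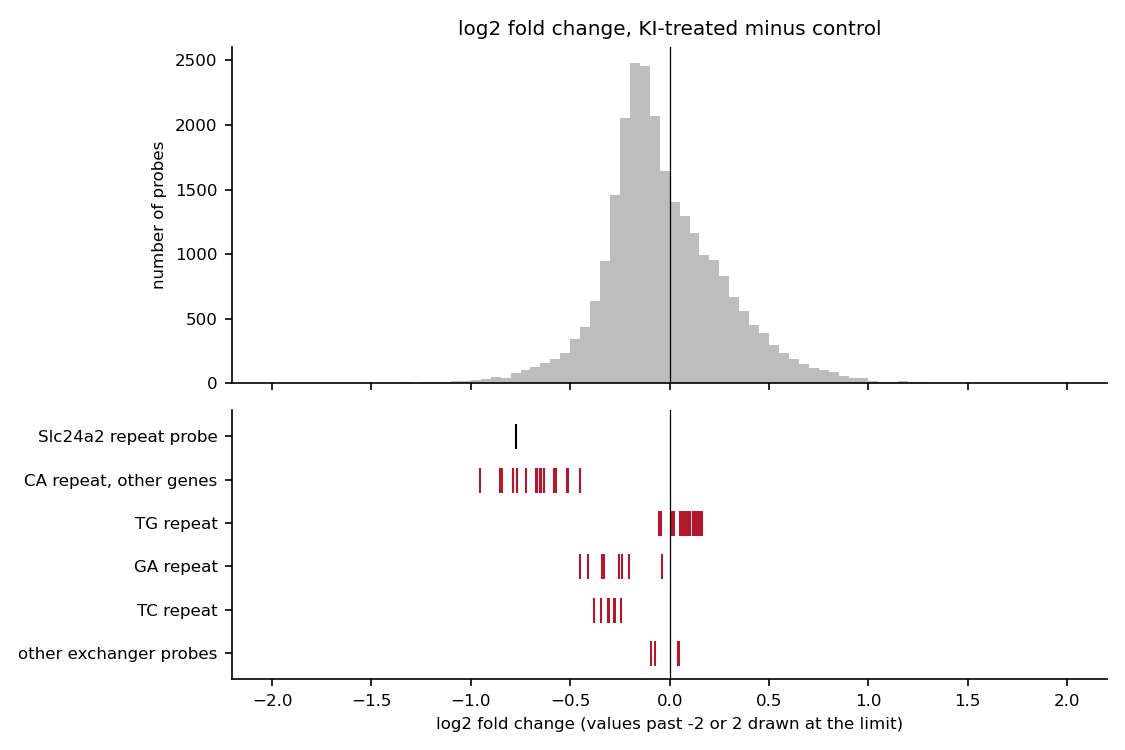
Upper panel: number of probes by log2 fold change (KI-treated minus control) for the 25717 tested probes. Lower panel: 1 tick per probe for the Slc24a2 repeat probe, the 23 other CA repeat probes, the 39 TG repeat probes, 8 GA and 7 TC repeat probes and the 4 other tested exchanger probes. The CA probes lie between -0.95 and -0.45 around the Slc24a2 value of -0.77, the TG probes between -0.05 and 0.16, and the other exchanger probes close to 0.

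The CA repeat probes also followed the Slc24a2 probe from array to array once the difference between the groups was taken out. The group means were subtracted and Pearson's r over the 13 arrays was computed between the Slc24a2 repeat probe and each of 25649 other tested probes with values on all arrays. The other 23 CA probes had r between 0.660 and 0.987 with a median of 0.885, where the median over all probes was -0.036. Among the 100 probes with the highest r there were 18 of these 23, and among the first 10 there were 8. The points share their arrays and their repeat, so this is a description and no p is given. The 39 TG probes did not follow it in this way, with r from -0.150 to 0.311, a median of 0.052 and 0 among the first 100.

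The 5 gene symbols with the highest r were Cx3cr1, Vom2r18, Glra2, Rassf2 and Vwce. Cx3cr1 had r = 0.987 and a Spearman correlation of 0.945, and r = 0.955 without control 3 and control 6, the 2 arrays farthest from the median. For Vom2r18 the same values were 0.956, 0.951 and 0.896, for Glra2 0.947, 0.934 and 0.905, and for Rassf2 0.935, 0.676 and 0.757. Within the KI-treated group alone, r of these 4 probes was 0.923, 0.844, 0.917 and 0.669. Within the control group it was 0.997, 0.974, 0.953 and 0.984. All 4 held the CA run. Vwce (r = 0.930, Spearman correlation 0.907, r = 0.755 without those 2 arrays), a secreted protein with von Willebrand factor C domains, was the exception, with a longest run of 4 bases and a log2 fold change of -0.27. Of the tested exchangers, Slc24a3 had r = -0.141, Slc24a5 r = -0.145, and Slc8a1 r = -0.253 and 0.524 on its 2 probes.

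The median level of the 23 CA probes ran from 2.26 to 2.90 over the KI-treated arrays and from 2.50 to 3.58 over the control arrays. Control 3 was the highest array for that median and for the Slc24a2 probe (2.70). Control 6 was the lowest control for both, and KI 6 was the highest KI-treated array for both.

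**Figure D3:**
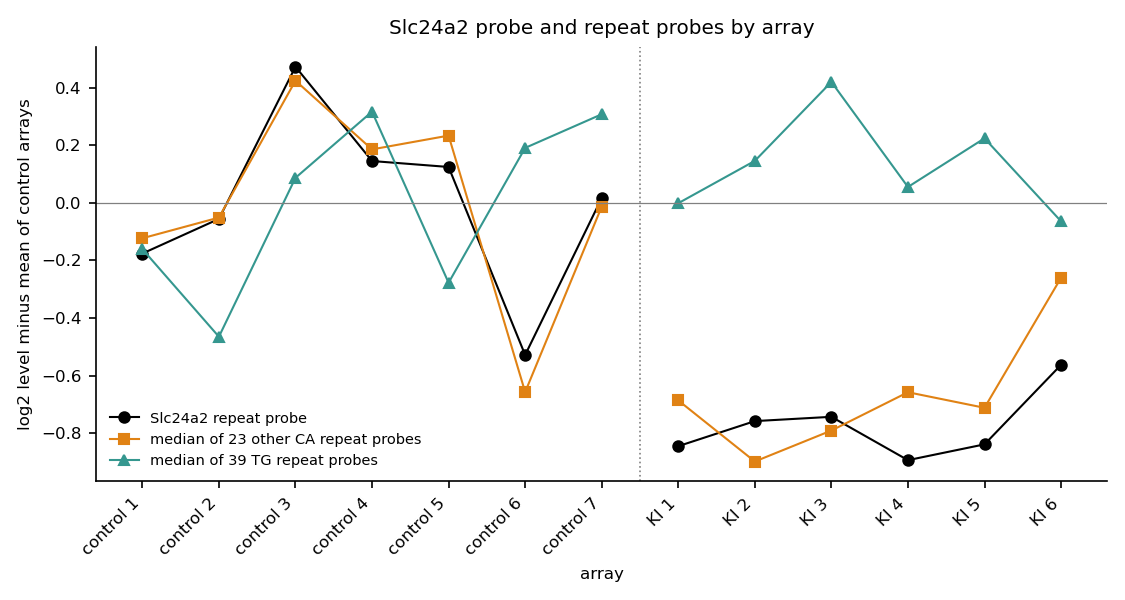
Level on each array minus the mean of the 7 control arrays (log2) for the Slc24a2 repeat probe, for the median of the 23 other CA repeat probes and for the median of the 39 TG repeat probes. The Slc24a2 and CA lines peak together at control 3, dip together at control 6 and lie below 0 on all 6 KI-treated arrays, while the TG line does not follow them.

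For 7 of the genes with a CA repeat probe, other probes without such a run were also tested. The CA probes of these genes had log2 fold changes from -0.77 to -0.51. Their 10 other probes ranged from -0.40 to 0.14 with a median of -0.07, near the -0.08 of all tested probes, and 7 of the 10 had a lower mean in the KI-treated group. Cx3cr1 gave -0.72 (standard error 0.16) on its CA probe and 0.07 (standard error 0.18) on the other. Rassf2, a tumour suppressor that binds Ras, gave -0.65 (standard error 0.15) and -0.01 (standard error 0.17), and Mpp6, a scaffold protein of the membrane, gave -0.51 (standard error 0.14) and 0.03 (standard error 0.15). Nek8 had 2 other probes, at -0.37 and 0.14. No such comparison could be made for Slc24a2, whose second probe was at background. What part the repeat has in the difference of the Slc24a2 probe was not tested, and the values above stand beside it.

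**Figure D4:**
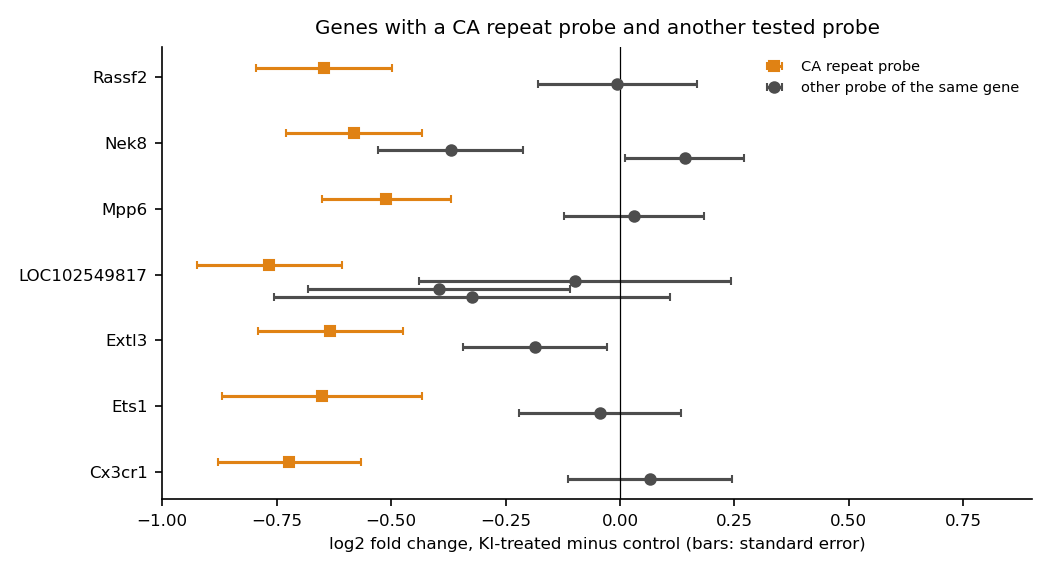
Log2 fold change (KI-treated minus control, bars show the standard error) of the CA repeat probe, in orange, and of the other tested probes, in grey, for the 7 genes that have both. The CA probes lie from -0.77 to -0.51, and the 10 other probes from -0.40 to 0.14.

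Of the other potassium-dependent exchangers, Slc24a3 and Slc24a5 were measured on every array and had differences near 0, while Slc24a1 and Slc24a4 were at background. Slc24a3 (A_44_P936248, chr3:134248934-134248993) is known from smooth muscle and brain. Its level ran from -1.42 to -0.33 in the KI-treated group (median -1.26) and from -1.38 to -0.93 in the control group (median -1.23), and the groups overlapped. The log2 fold change was 0.04, with a standard error of 0.17 and, in limma, an adjusted p of 0.894. KI 2 alone stood high, at -0.33, and without it the log2 fold change was -0.12. On KI 2 the summed levels of the smooth muscle markers (16.4, group median 13.4), the neuron markers (1.88, group median 1.36) and the skeletal muscle markers (72.9, group median 15.7) were the highest of the KI-treated group, and so were those of the thyroid follicle markers (1340, group median 1300) and the red blood cell markers (11.5, group median 8.08). Within the neuron list, Snap25 (-2.43, group mean -2.25) and Elavl4 (-2.47, group mean -2.08) were lower on KI 2 than the mean of the group. Over all arrays the smooth muscle sum ran from 10.3 to 16.4 in the KI-treated group and from 8.13 to 15.8 in the control group, and the neuron sum from 1.05 to 1.88 and from 0.921 to 1.43. Of these lists all 5 smooth muscle, 4 of 6 neuron and 7 of 8 skeletal muscle genes entered the fit, and the neuron gene Syt1 was well above background on 1 array. Their part in the Slc24a3 level was not tested.

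Slc24a5 (A_44_P121668, chr3:112386921-112386980), the exchanger of pigment cells, was likewise well above background on all 13 arrays. Its level ran from -0.64 to -0.02 in the KI-treated group (median -0.33) and from -0.66 to 0.16 in the control group (median -0.15). The difference was -0.09 on the log2 scale, with a standard error of 0.15 and, in limma, an adjusted p of 0.743. All KI-treated values lay inside the range of the controls. Of 4 melanocyte markers on the array, 0 entered the fit, and Tyr and Tyrp1, the pigment enzymes, were well above background on 0 arrays. The summed level of the melanocyte list ran from 0.0515 to 0.107 in the KI-treated group and from 0.0439 to 0.143 in the control group.

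Slc24a1 (A_64_P092058, chr8:69175549-69175608) was well above background on 2 arrays, KI 3 and control 3, and its level ran from -6.17 to -4.06 over all arrays. Slc24a4 (A_64_P003948, chr6:126538437-126538496) was well above background on 0 of 13 arrays. Neither entered the fit, and no fold change is given for them. Of 6 genes for cyclic nucleotide-gated channels, the partners of the NCKX exchangers in photoreceptors, 3 were well above background on 0 arrays, and only Cngb1 entered the fit (-0.50, standard error 0.28, adjusted p = 0.433 in limma). Cnga1, the rod subunit, was measured on 1 array, and Cnga3, the cone subunit, on 2.

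Among the exchangers that do not need potassium, Slc8a1 was the one measured in all thyroids. Its brightest probe (A_42_P826138, chr6:4418460-4418519) was well above background on all 13 arrays, with levels from -0.84 to -0.54 in the KI-treated group (median -0.66) and from -1.02 to -0.19 in the control group (median -0.51). All KI-treated values lay inside the range of the controls. The log2 fold change was -0.08, with a standard error of 0.13 and, in limma, an adjusted p of 0.766. A second probe (A_64_P008607, chr6:4421341-4421400) was measured on 5 KI-treated and 3 control arrays, and gave a difference of 0.05 on the log2 scale, with a standard error of 0.17 and, in limma, an adjusted p of 0.887. Both values were near 0 and changed sign under some alternatives, so no direction is given for Slc8a1.

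The remaining 2 Slc8a1 probes were well above background on 0 of 13 arrays. One (A_44_P290391, chr6:4691630-4691689) began at position 30 of the transcript, near its 5′ end, and the other (A_44_P1106422, chr6:4407812-4407871) at position 16813 of a predicted long transcript. The 2 measured probes began at positions 2768 and 5648. Signal on this gene was thus limited to the 2 probes at those positions, in both groups.

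Slc8a2 (A_64_P125019, chr1:76498329-76498388) was well above background on control 7 only, at -3.38. Control 6 stood at -3.59 without that mark, and the other controls lay between -6.65 and -6.10. The KI-treated arrays lay between -7.38 and -5.59. Control 7 was also the one array with signal on the second Slc24a2 probe. Its summed level of neuron markers was 1.27, against a control median of 1.15 and a highest control value of 1.43, that of control 6. The part of nerve tissue in these values was not tested. Slc8a3 (A_44_P522355, chr6:105013582-105013641) was well above background on 0 arrays. The skeletal muscle list, whose tissue is known to express Slc8a3, had summed levels from 4.96 to 72.9 in the KI-treated group and from 19.7 to 140 in the control group.

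The genes that work beside the exchangers were taken as 6 lists of 53 genes, of which 51 had a probe and 39 entered the fit through their brightest probe. After adjustment in limma, 0 of the 39 passed 0.05 in either direction, against 0% of all tested probes, and the smallest adjusted p was 0.353. Unadjusted, 3 were higher and 2 lower at p under 0.05, where the shares over all tested probes were 5.71% and 7.01%. These 5 were, besides Orai1 and Ncs1, named further on, the uniporter regulator Micu3 (0.64, standard error 0.19), the calmodulin gene Calm2 (0.62, standard error 0.21) and parvalbumin, Pvalb (-2.20, standard error 0.83), the last 3 singled out after their values were seen. The size of the Micu3 value depended on the processing. Normexp with the 75th percentile gave 0.090, with an unadjusted p of 0.284 in limma. Normexp with quantile normalization gave 0.28 and the deposited log2 values 0.38, with unadjusted p of 0.00345 and 0.0016 in limma. Pvalb is a calcium buffer of fast skeletal muscle, and the skeletal muscle markers had a median of -1.41. Further calcium handling genes known from skeletal muscle, also singled out after their values were seen, were the pump Atp2a1 (-1.42, standard error 0.70), the calcium store protein Casq1 (-1.07, standard error 0.82) and the release channel Ryr1 (-0.85, standard error 0.68). Their adjusted p in limma were 0.405, 0.523 and 0.535, and the part of muscle tissue in these values was not tested. The median log2 fold change of the 39 was -0.15, against -0.08 for all tested probes.

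Of the calcium pumps, which extrude calcium or return it to stores at the cost of ATP, 8 of 9 were tested, with log2 fold changes from -1.42 (Atp2a1) to 0.23. The plasma membrane pumps Atp2b1 and Atp2b4 had log2 fold changes of -0.05 (standard error 0.15) and -0.15 (standard error 0.16). Atp2a2, the main pump of the endoplasmic reticulum, stood at -0.18, Atp2a3, a further pump of that membrane, at 0.23, and Atp2c1, the pump of the Golgi apparatus, at -0.25. For the sodium pump, which feeds the exchangers, the beta subunit Atp1b1 stood at -0.24 and the regulator Fxyd1 at 0.02. None of these 7 passed the test.

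The channels that admit or release calcium were 9 tested genes of 11. The release channels Itpr1 and Itpr3 had log2 fold changes of 0.08 and 0.16. Orai1, the pore of store-operated entry, stood at 0.27 (standard error 0.12, adjusted p = 0.385 in limma) and Stim1, its sensor in the endoplasmic reticulum, at -0.17. In mitochondria, Slc8b1, the exchanger that returns calcium to the cytosol in trade for sodium, stood at 0.29 (standard error 0.19, adjusted p = 0.472 in limma), and Letm1, a protein of the inner membrane, at -0.12. Mcu, the uniporter pore, was well above background on 3 arrays and was not tested. Of the sensors and buffers, the neuronal calcium sensor Ncs1 stood at -0.32 (standard error 0.13, adjusted p = 0.379 in limma), and Calb1 was well above background on 0 arrays.

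**Figure D5:**
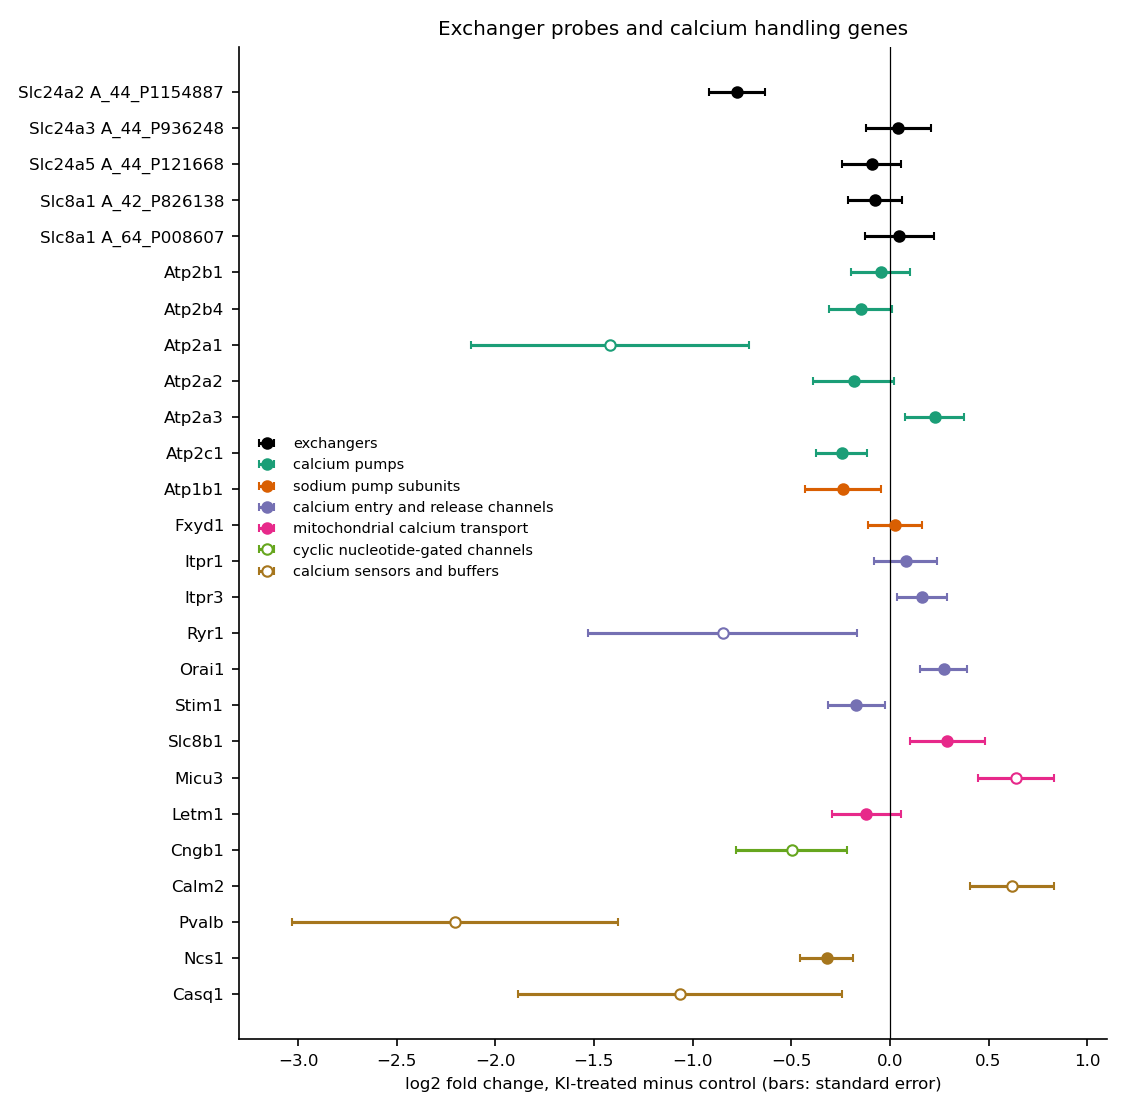
Log2 fold change (KI-treated minus control, bars show the standard error) of the 5 tested exchanger probes, in black, and of the tested calcium handling genes named in the text, coloured by list. Open points mark 7 genes singled out after their values were seen. The Slc24a2 repeat probe lies at -0.77 and the other exchanger probes close to 0. The calcium handling genes with filled points lie between -0.32 and 0.29, while Pvalb, Atp2a1, Casq1 and Ryr1 lie further below 0 than the Slc24a2 probe, with wide bars.

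The arrays were those of thyroid by their markers. All 9 thyroid follicle genes, among them Tg and Tshr, were well above background on every array, with summed levels from 1180 to 1340 in the KI-treated group and from 1240 to 1860 in the control group. Tg was by far the brightest of the 9, with mean log2 levels of 10.02 (KI-treated) and 10.28 (control), so these sums mostly follow Tg. C cell markers (Calca, Chga and Scg2) and parathyroid markers (Pth, Gcm2 and Casr) were measured as well, with summed levels from 101 to 271 and from 340 to 665 over the 13 arrays. For the skeletal muscle list the median log2 fold change was -1.41, with 0 of 7 past 0.05 after adjustment in limma, and its part in the differences of the members was not tested. Fewer cells of a type and less RNA per cell cannot be told apart in such bulk samples.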

How the data were processed

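Total RNA from 13 thyroids (6 KI-treated, 7 control) was measured on one-colour Agilent arrays. For each array the authors deposited the scanner output, where the software (Feature Extraction 10.7.3.1, per the file headers) gives the fluorescence intensity of each of 62976 features after background subtraction, without normalization between arrays. They also deposited log2 values of the same arrays, whose normalization is not given in the sources used here. These were used as an alternative only. Dim signals depend on the background subtraction. Between 34840 and 41050 of 58717 gene spots per array were well above background, and 0 were saturated. The number of arrays limits the precision. No columns of other samples were present (0).

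Log2 of the processed intensity was averaged over the spots of a probe without control spots and spots marked as outliers, and the 75th percentile over probes was subtracted. Probes whose signal was well above background on 6 or more arrays were tested with limma 3.58.1 (R 4.3.3, lmFit and eBayes, Benjamini-Hochberg adjustment, threshold 0.05), without covariates. The fit was tested on 25650 simulated probes with independent noise, of which 200 were changed by 0.5, 1 or 2 on the log2 scale. It recovered 2%, 76% and 95% of these, with 0, 13 and 21 false calls. Most changes of 0.5 were thus missed, so a count of 0 passing probes does not exclude changes of that size. Noise shared between probes was not simulated. Correlations and figures were made in Python 3.11.15 with numpy 2.4.6, pandas and matplotlib. Groups came from the sample labels. No pair of arrays was near identical (r between 0.952 and 0.988). Same-numbered arrays of the groups did not deviate together (r between -0.11 and 0.07), so the numbers were not used as pairs. Coordinates are those of the file headers (rn4) and were not checked against a genome.

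The genes named are the 8 members with every probe, the marked members of 6 calcium handling lists, cell type markers, and the 5 gene symbols most and least like the Slc24a2 probe. Some genes that this rule names are not reported here. Members and lists were chosen with earlier results of these data known. The repeat probes and single arrays were singled out after their values were seen. Alternatives were quantile normalization, normexp (offset 50) with either scaling, the authors' log2 table, and every probe or only those well above background throughout. Further alternatives were slide, scan day or replicate number as a block, array weights, the t-test with pooled variance, and leaving out each array. The percentile over spots and other repeat lengths were added after seeing the data.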

Additional observations from a re-analysis of the deposited data

Results flagged for a closer look

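In 3 of the 24 sets of values examined (12 exchanger probes in 2 groups), 1 array stood far from the rest of its group by Dixon's test. Chance gives this in about 1 group in 20. The second Slc24a2 probe stood at -2.98 on control 7, the only array on which it was well above background. Slc24a3 stood at -0.33 on KI 2, where all other KI-treated arrays lay at or below -1.17. Slc24a1 stood at -5.23 on control 5, with the spot not well above background. No cause was tested for any of them.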

How the results depend on the processing

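For the Slc24a2 repeat probe the log2 fold change ran from -0.90 (array weights) to -0.67 over the alternatives. It ran from -0.86 to -0.69 when 1 array was left out. The probe was chosen for its decrease, and its groups did not overlap on the main scale. Leaving out 1 array thus could not change the sign, and these ranges describe size only. The median of the 23 other CA probes ran from -0.78 to -0.55. The count of probes past 0.05 after adjustment was 0, but 50 with array weights and 0 to 1 when 1 array was left out (1 without control 1 and 1 without control 2). At an unadjusted p under 0.05 the count ran from 2356 to 5120. None of the tested paralogs or calcium handling genes passed under any alternative, the t-test with pooled variance included. The replicate block gave 0 probes and a log2 fold change of -0.77 for Slc24a2, and changed no call, and since same-numbered arrays do not deviate together it is no pairing.

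Values near 0 changed sign, each below the threshold. Normexp with the 75th percentile gave -0.18 for the second Slc8a1 probe, and the deposited log2 values gave 0.010 for Atp2b1. The percentile over spots gave 0.0027 for the brightest Slc8a1 probe and 0.031 for Atp2b1. Array weights gave 0.061 for Slc8a1, 0.14 for Atp2b1, -0.0096 for Fxyd1 and 0.067 for Letm1, and the replicate block -0.0082 for Fxyd1. With 1 array left out, ranges crossed 0 for Slc24a3 (-0.12 to 0.10), the second Slc8a1 probe (-0.044 to 0.12), Atp2b1 (-0.12 to 0.028), Fxyd1 (-0.058 to 0.10) and Itpr1 (-0.031 to 0.15). Over all alternatives Atp2a1 ran from -1.88 to -0.90, Casq1 from -1.98 to -0.35, Ryr1 from -1.56 to -0.30, Cngb1 from -0.66 to -0.28 and Micu3 from 0.090 to 0.72. The causes were not tested. Probes near background, which include 7 of the 12 exchanger probes, cannot be compared at this signal.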

Other observations

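Repeats of other composition were counted in the same way, after the values of the CA probes had been seen and without a test of the repeats as sets. The motif GAGAGAGAGAGAGAGAGA was present in 8 gene probes, all with a lower mean in the KI-treated group and a median log2 fold change of -0.29, and TCTCTCTCTCTCTCTCTC in 7, all lower, with a median of -0.31. Over all tested probes 60.7% were lower. In limma, 1 of the 8 and 1 of the 7 had an unadjusted p under 0.05 (12.5% and 14.3%), near the 12.7% of all tested probes. Under the other 5 scalings the TC probes were lower in all 7 cases and the GA probes in 7 of 8. The median of the GA probes was -0.16 after either quantile normalization and -0.18 in the deposited values.

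After the group means were subtracted, the 5 gene symbols with the lowest r with the Slc24a2 repeat probe were Zfp667 (r = -0.863), Map7 (r = -0.850), Uhmk1 (r = -0.849), RT1-T24-4 (r = -0.829) and S100a9 (r = -0.820). Without control 3 and control 6 the values were -0.432, -0.342, -0.602, -0.787 and -0.240, so for Zfp667, Map7 and S100a9 most of the relation rested on those 2 arrays. RT1-T24-4, a class I histocompatibility gene, kept most of it, and its log2 fold change was -0.64 (standard error 0.31). Within the KI-treated group alone, r was 0.156 for Zfp667 and 0.635 for Map7, so neither ran against the probe there. Within the control group r was -0.980 for Zfp667 and -0.973 for Map7. Uhmk1, RT1-T24-4 and S100a9 had a negative r in both groups.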
